A study of Mus musculus with 4 samples.

Results

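Goblet cell mucus and secretory genes were examined in mouse small intestinal organoids in which the transcriptional co-activator YAP had been deleted or overproduced. The genes are Muc2, Tff3, Agr2, Fcgbp, Spdef, Zg16, Spink4, Retnlb, Creb3l1 and Klk1, taken by symbol from the deposited expression table. All 10 had a single row there, of 22632 rows in all. The study sequenced RNA of 4 organoid cultures, 24 hours after whole crypts were embedded in Matrigel with Egf, Noggin and R-spondin 1. Yap-/- organoids came from Yapfl/fl;VillinCre mice, which lose Yap throughout the intestinal epithelium because the Villin promoter drives Cre there, and Yap+/- organoids from Yap+/fl;VillinCre mice, which keep 1 copy. YapTg organoids carry a doxycycline-inducible wild-type Yap transgene under a Cre-driven reverse tetracycline transactivator, and were grown with or without doxycycline from seeding. Each of the 4 groups had 1 library, so no difference has a replicate check and no p-value is given. No culture analysed here had doxycycline without the transgene, so the drug and the transgene cannot be told apart. The labels name neither the animals behind each culture nor the Cre line of the YapTg mice.

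Goblet cells are the mucus-producing cells of the intestinal epithelium. They arise from crypt progenitors that express the factor Atoh1, and the ETS-family factor Spdef drives their maturation. Their main product, the gel-forming mucin Muc2, is folded in the endoplasmic reticulum with the help of the disulfide isomerase Agr2, heavily glycosylated in the Golgi and released with small peptides and lectins that form or guard the mucus layer.

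Library totals, as solved from the deposited values, were 67716822 reads in Yap-/- and 56926423 in Yap+/- organoids, and 75269003 in induced and 44934170 in uninduced YapTg organoids. The deposited values are RPKM, reads scaled by gene length and by library total. A gene of 2 kb at 1 RPKM had between 89.9 and 151 reads. Yap1 itself had 3.35 RPKM in Yap-/-, against 16.7 RPKM in Yap+/- organoids, and 1039 RPKM in induced, against 25.1 RPKM in uninduced YapTg organoids, the direction the labels give. Epithelial identity markers were present throughout: all 11 stood above 1 RPKM in every library, Epcam between 335 and 394 RPKM. Of 15 stromal, immune and blood markers, 12 to 14 lay under 1 RPKM in each library, their sum was 6.83 to 7.87 RPKM, and Col3a1 and Hba-a1 were at 0 in all 4.

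The goblet cell genes ranged from 1.13 RPKM (Spdef in induced YapTg organoids) to 1328.5 RPKM (Tff3 in Yap-/- organoids). The trefoil peptide gene Tff3 ranked 20th among all genes by RPKM in Yap-/- and 21st in Yap+/- organoids, and 89th in induced and 19th in uninduced YapTg organoids. Tff3, the protease inhibitor gene Spink4 and the lectin gene Zg16 made up 84.0% of the summed RPKM of the 10 genes in Yap-/- and 83.8% in Yap+/- organoids, and 83.0% in induced and 76.6% in uninduced YapTg organoids. The transcription factor genes Spdef and Creb3l1 were the lowest of the 10 in every library. The 10 genes together took 0.548% of the reads in genes in Yap-/- and 0.423% in Yap+/- organoids. They took 0.109% in YapTg organoids with and 0.533% without doxycycline.

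**Figure D1:**
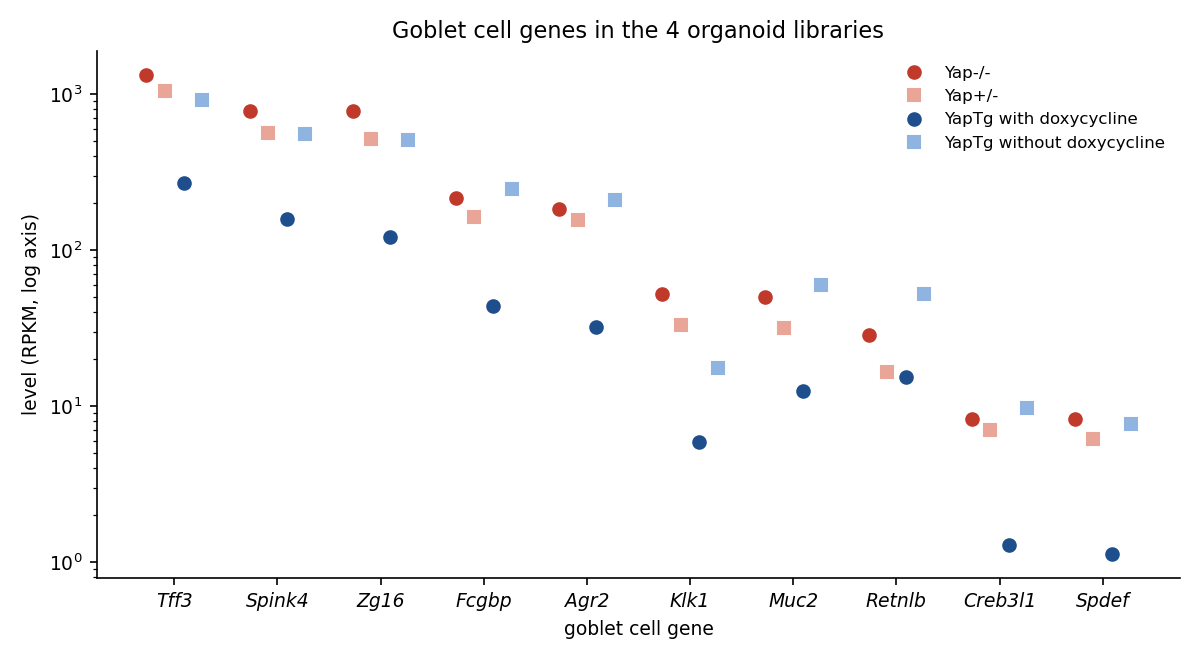
Level of each goblet cell gene (RPKM, logarithmic axis) in the 4 libraries, 1 point per library, genes ordered by level in Yap+/- organoids. The induced YapTg library is the lowest point for all 10 genes, for example 12.5 RPKM for Muc2 against 59.5 RPKM without doxycycline, while each Yap-/- point lies above its Yap+/- point.

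For all 10 genes the induced YapTg library was the lowest of the 4, as it was for 36.5% of the 11285 genes at 1 RPKM or more in any library. The highest library was Yap-/- for 5 genes (Tff3, Spdef, Zg16, Spink4 and Klk1) and uninduced YapTg for the other 5 (Muc2, Agr2, Fcgbp, Retnlb and Creb3l1). Of the 11285 genes, 24.5% were highest in Yap-/- and 27.9% in uninduced YapTg organoids. Yap+/- was neither the lowest nor the highest for any of the 10, beside 30.8% lowest and 7.48% highest over the 11285 genes. These RNA levels come from whole cultures, where fewer goblet cells and less RNA per goblet cell cannot be told apart.

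Promoter sequences, reaching 250 bases before to 50 bases after the annotated start, were found for 5 of the 10 genes in RefSeq (GRCm38.p6): Agr2, Fcgbp, Klk1, Muc2 and Spdef. Those of Spdef, Muc2 and Agr2 are shown, since the goblet cell factor, the main mucin and the enzyme that folds it stood low together in induced organoids. Capitals mark the letters searched on both strands: GGAATG, the core bound by TEAD partners of YAP, CAGCTG, an E-box of the kind that basic helix-loop-helix factors such as Atoh1 bind, TTTATG, a core of CDX homeobox factors, and TGACGT, a core shared by cAMP and unfolded-protein response elements. The 4 motifs do not overlap one another in these windows.
Spdef, chr17:27728902-27729201, minus strand: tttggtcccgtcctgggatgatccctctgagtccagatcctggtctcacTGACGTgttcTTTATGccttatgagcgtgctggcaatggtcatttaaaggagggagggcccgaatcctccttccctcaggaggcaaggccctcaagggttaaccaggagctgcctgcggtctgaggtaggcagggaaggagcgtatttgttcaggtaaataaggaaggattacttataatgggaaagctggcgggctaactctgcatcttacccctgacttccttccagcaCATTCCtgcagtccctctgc
Muc2, chr7:141690090-141690389, plus strand: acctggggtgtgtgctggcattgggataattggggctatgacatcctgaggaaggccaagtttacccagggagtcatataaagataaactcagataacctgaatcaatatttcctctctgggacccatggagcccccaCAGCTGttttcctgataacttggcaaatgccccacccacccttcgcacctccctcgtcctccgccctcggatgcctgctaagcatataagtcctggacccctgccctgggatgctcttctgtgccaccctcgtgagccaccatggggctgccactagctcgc
Agr2, chr12:35992675-35992974, plus strand: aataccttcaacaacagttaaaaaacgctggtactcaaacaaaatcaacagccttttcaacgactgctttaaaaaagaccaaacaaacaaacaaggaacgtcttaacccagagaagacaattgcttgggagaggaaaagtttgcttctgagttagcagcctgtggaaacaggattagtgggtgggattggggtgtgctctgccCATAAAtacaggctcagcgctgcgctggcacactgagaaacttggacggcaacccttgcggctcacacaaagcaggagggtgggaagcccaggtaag

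The TEAD letters were in 1 of the 5 promoters, that of Spdef, where CATTCC begins at base 31 after the start, and in 14.7% of 32851 promoters of the same length. TTTATG or its complement was in those of Spdef and Agr2, against 11.9% of all promoters. CAGCTG was in those of Muc2 and Fcgbp, against 16.3%, and TGACGT in that of Spdef, against 7.51%. The Klk1 promoter held none of the 4. These matches describe the letters of a short window and show no binding.

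Loss of Yap was the first comparison. All 10 goblet cell genes were higher in Yap-/- than in Yap+/- organoids, by 1.17-fold to 1.73-fold, with a median log2 ratio of 0.43 (on RPKM + 1, here and for all log2 ratios). Of the 10710 genes that reached 1 RPKM in at least 1 of the pair of libraries, 65.5% were higher, and their median was 0.05. None of the 10 reached 2-fold, the size at which a gene was counted as higher or lower: 0 of 10, beside 0.336% of all genes. At 1.5-fold there were 4 (Muc2, Zg16, Retnlb and Klk1), beside 1.34% of all genes. In the order of log2 ratios the 10 stood above 87.0% (Creb3l1) to 99.3% (Retnlb) of the genes tested.

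Among the secreted products, Retnlb, which encodes an antibacterial resistin-like protein, had the largest ratio. Its level was 28.6 RPKM in Yap-/-, against 16.5 RPKM in Yap+/- organoids, 1.73-fold higher (95% interval 1.57 to 1.90; intervals cover the counting of reads only). Muc2 had 50.2 RPKM in Yap-/-, against 31.6 RPKM in Yap+/- organoids, 1.59-fold higher (1.55 to 1.62). Klk1, a tissue kallikrein that cleaves kininogen, had 52.1 RPKM in Yap-/-, against 32.9 RPKM in Yap+/- organoids, also 1.59-fold higher (1.49 to 1.69), though close relatives among the kallikrein genes may share its reads. These 3 genes lay well above most genes in ratio but under 2-fold. Zg16, which encodes a lectin that binds the cell wall of Gram-positive bacteria, was 1.52-fold higher (1.50 to 1.54), with 778 RPKM in Yap-/-, against 512 RPKM in Yap+/- organoids.

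The remaining secreted products differed less. Spink4, a Kazal-type inhibitor, had 772 RPKM in Yap-/-, against 565 RPKM in Yap+/- organoids (1.37-fold). Fcgbp, a large mucus protein that binds Muc2, had 217 RPKM in Yap-/-, against 163 RPKM in Yap+/- organoids (1.33-fold). Tff3, whose peptide aids epithelial repair, had 1328.5 RPKM in Yap-/-, against 1051 RPKM in Yap+/- organoids (1.26-fold). The ratios of the 7 secreted products thus ran from 1.26-fold to 1.73-fold, while the folding gene and both factor genes lay at 1.17-fold to 1.34-fold. Agr2 had 184 RPKM in Yap-/-, against 155 RPKM in Yap+/- organoids (1.19-fold). Spdef had 8.29 RPKM in Yap-/-, against 6.19 RPKM in Yap+/- organoids (1.34-fold, 1.22 to 1.47). Creb3l1, which encodes a membrane-bound factor of the endoplasmic reticulum that is cleaved under stress, had 8.21 RPKM in Yap-/-, against 6.99 RPKM in Yap+/- organoids (1.17-fold, 1.08 to 1.27).

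**Figure D2:**
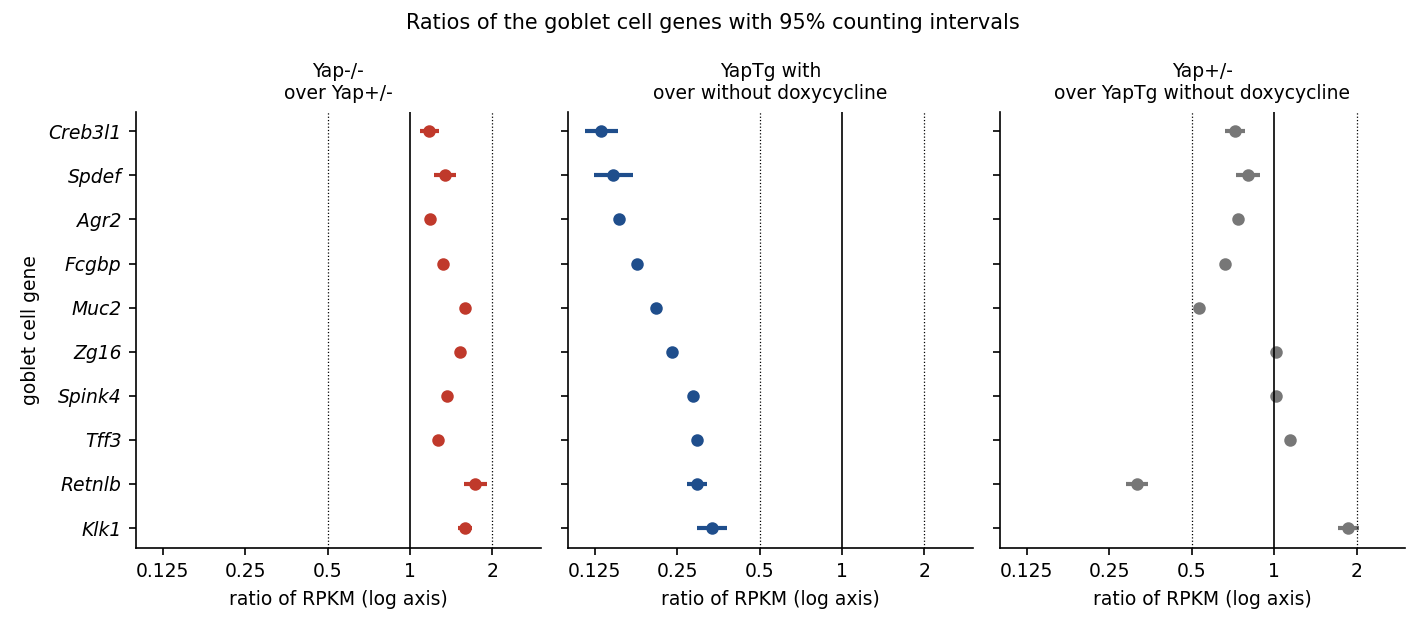
Ratio of RPKM for each goblet cell gene (logarithmic axis) for loss of Yap (Yap-/- over Yap+/-), for induction (YapTg with over without doxycycline) and between the other libraries (Yap+/- over uninduced YapTg), with exact 95% counting intervals as bars; dotted lines mark 2-fold either way. Ratios with induction run from 0.132 for Creb3l1 to 0.335 for Klk1, all left of the lower dotted line, and those with loss from 1.17 to 1.73.

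Induction of the transgene with doxycycline was the second comparison. All 10 goblet cell genes were at least 2-fold lower in YapTg organoids with doxycycline than without it, beside 5.80% of the 11108 genes tested. Their median log2 ratio was -2.05, against -0.04 over all genes tested. At 4-fold on the same scale there were 6 (Muc2, Agr2, Fcgbp, Spdef, Zg16 and Creb3l1), beside 1.09% of all genes. The log2 ratios of the low genes depend on the pseudocount: with 5 in place of 1 they were -1.05 for Spdef and -1.23 for Creb3l1, among the smallest of the 10, and with Muc2 at -1.88 these 3 fell short of 4-fold. The 10 log2 ratios had between 0.360% (Agr2) and 2.92% (Klk1) of the tested genes below them. The summed level of the 10 was 662 RPKM with and 2580 RPKM without doxycycline, 3.90-fold lower. For Tff3, Spink4 and Zg16 together the sum was 3.60-fold lower, and for the other 7 genes 5.37-fold lower.

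The factors and the folding gene had the largest ratios of RPKM, which carry no pseudocount. Creb3l1 was at 1.28 RPKM with and 9.69 RPKM without doxycycline, 7.56-fold lower (95% interval 6.59 to 8.71), on 252 and 1138 reads. Spdef was at 1.13 RPKM with and 7.73 RPKM without doxycycline, 6.84-fold lower (5.82 to 8.08), on 186 and 760 reads. Agr2 was at 32.2 RPKM with and 210.05 RPKM without doxycycline, 6.53-fold lower (6.27 to 6.79). The intervals of Creb3l1, Spdef and Agr2 overlap, so counting alone does not order them.

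Of the secreted products, Fcgbp, Muc2 and Zg16 had the largest ratios. Fcgbp was at 43.9 RPKM with and 247 RPKM without doxycycline, 5.61-fold lower (5.54 to 5.68). Muc2, the mucin of the gel, was 4.77-fold lower (4.64 to 4.91), at 12.5 RPKM with and 59.5 RPKM without doxycycline. Zg16 was at 120.3 RPKM with and 503 RPKM without doxycycline, 4.18-fold lower (4.09 to 4.27). By level among all genes of the table, Muc2 ranked 4013 with and 736 without doxycycline.

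The smallest ratios were those of the short secreted peptides and of the protease. Spink4 was at 158 RPKM with and 555 RPKM without doxycycline, 3.51-fold lower (3.40 to 3.62). Tff3 was at 271 RPKM with and 918 RPKM without doxycycline, 3.39-fold lower (3.31 to 3.48). Both genes stayed among the more abundant of the induced library, at ranks 189 and 89 by level. Retnlb was at 15.4 RPKM with and 52.3 RPKM without doxycycline, 3.39-fold lower (3.11 to 3.69). Klk1 was at 5.91 RPKM with and 17.6 RPKM without doxycycline, 2.98-fold lower (2.63 to 3.38). The intervals of Tff3, Spink4 and Retnlb overlap one another, and all 4 lie below those of Creb3l1, Spdef, Agr2, Fcgbp, Muc2 and Zg16. Both comparisons use different libraries, so the ratios can be set side by side. Over the 10 genes the Spearman correlation between log2 ratios with loss and with induction was 0.60, against -0.43 over 10533 genes tested in both. The 0.60 orders sizes among genes that were all higher with loss and all lower with induction. It does not mean that they went the same way in both. These correlations describe genes that share the same 4 libraries.

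**Figure D3:**
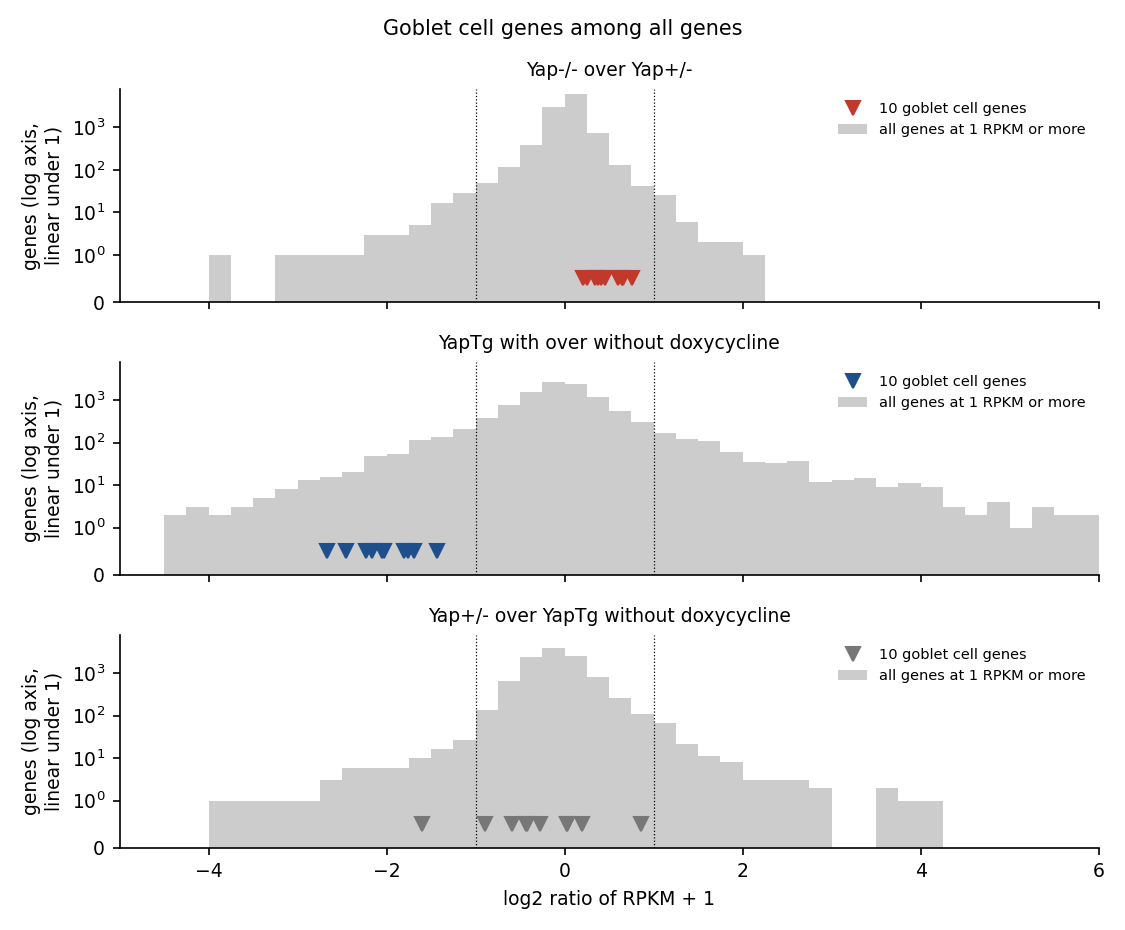
Number of genes by log2 ratio (on RPKM + 1, bins of 0.25, count axis logarithmic above 1) in the 3 comparisons, with the 10 goblet cell genes as triangles and 2-fold as dotted lines. The triangles lie between 0.20 and 0.76 with loss of Yap, between -2.67 and -1.43 with induction, and between -1.61 and 0.86 for Yap+/- over uninduced YapTg organoids.

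The Yap+/- and uninduced YapTg libraries also differed in goblet cell genes. Yap+/- organoids have lost 1 Yap copy, and Yap1 was 1.50-fold lower in them (95% interval 1.46 to 1.55). Line and Yap level therefore cannot be told apart in this pair. Of the 10, 4 were higher and 6 lower in Yap+/- than in uninduced YapTg organoids, beside 34.4% and 65.6% of all genes. The summed levels lay close, at 2540 RPKM in Yap+/- and 2580 RPKM in uninduced YapTg organoids. At 2-fold Retnlb alone was lower, 1 of 10 beside 0.726% of 10883 genes. It was 3.17-fold lower (95% interval 2.89 to 3.47), at 16.5 RPKM in Yap+/- and 52.3 RPKM in uninduced YapTg organoids. Of the other genes, Muc2 was 1.88-fold lower in Yap+/- and Klk1 1.86-fold higher. Zg16 and Spink4 were each 1.02-fold higher, and the interval of Spink4 (0.993 to 1.04) includes no difference. Of all genes called between these libraries, 60.5% were higher in Yap+/- as deposited and 74.2% after median-ratio scaling, which moved the median log2 ratio of all genes by 0.13 and put Klk1 past 2-fold as well, at a log2 ratio of 1.01.

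For Retnlb, Muc2, Klk1, Agr2, Fcgbp and Creb3l1 this gap was larger than the ratio with loss of Yap, for Creb3l1 for example 1.39-fold against 1.17-fold. Retnlb in Yap-/- organoids (28.6 RPKM) lay between Yap+/- (16.5 RPKM) and uninduced YapTg organoids (52.3 RPKM), and its induced level (15.4 RPKM) was close to that of Yap+/- organoids. The same order was found for Muc2, Agr2, Fcgbp and Creb3l1, whose Yap-/- level lay between the Yap+/- and the uninduced YapTg level. For Klk1, Tff3, Zg16 and Spink4 the uninduced level was instead below that of both Villin-Cre libraries. The gap between Yap+/- and uninduced YapTg cultures is a difference between lines, whose Yap1 level also differs, and not a replicate spread. This gap shares a library with each of the other comparisons.

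A further list held 34 symbols taken as other goblet cell genes, older names included, of which 31 had a row. Whether goblet cells were the source of their RNA here was not tested. The row named Clca1 is the gene now called Clca3a1. With loss of Yap, 23 of the 26 that reached 1 RPKM were higher, beside 65.5% of all genes, and 1 passed 2-fold, beside 0.336%. Their median log2 ratio was 0.28. The gene past 2-fold was Ang4, an antimicrobial ribonuclease that Paneth cells also make, with 482 RPKM in Yap-/-, against 220 RPKM in Yap+/- organoids (2.20-fold). Ccl9, a chemokine gene, had 13.1 RPKM in Yap-/-, against 7.55 RPKM in Yap+/- organoids. Clca3, the table's older name for the goblet cell mucus metalloprotease now called Clca1, went the other way, with 99.5 RPKM in Yap-/-, against 131 RPKM in Yap+/- organoids (1.31-fold lower). For loss of Yap, Clca3 was chosen after its values were seen.

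With induction, 17 of 27 such genes were at least 2-fold lower, beside 5.80% of all genes tested. In the other direction 2 passed 2-fold, beside 5.85% of all genes tested. The median log2 ratio of the 27 was -1.11. Of the 31 with a row, 11 lay under 1 RPKM with and 4 without doxycycline, so some reached the floor only in the library where they were higher. Ccl9 was 16.1-fold lower, at 0.388 RPKM with and 6.24 RPKM without doxycycline. Clca3 was at 37.5 RPKM with and 162 RPKM without doxycycline, 4.32-fold lower. Ern2, the goblet cell form of the stress sensor Ire1, was 6.23-fold lower, at 1.296 RPKM with and 8.08 RPKM without doxycycline. The 2 higher genes of the list were Clca6 and Scnn1a, and their cell of origin was not tested. Clca6, a chloride channel accessory family gene now named Clca4a, was at 360 RPKM with and 18.2 RPKM without doxycycline (19.8-fold). Scnn1a, an epithelial sodium channel subunit gene, was at 5.65 and 1.90 RPKM in the same order. Reg4 and Guca2a, which enteroendocrine cells or enterocytes also make, were 1.91-fold and 1.86-fold lower. The choice of Scnn1a, Reg4 and Guca2a followed sight of their values.

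A list of secretory lineage genes was set beside Spdef and Creb3l1. Atoh1 had 6.83 RPKM in Yap-/-, against 5.43 RPKM in Yap+/- organoids, and 1.04 RPKM in YapTg organoids with and 7.23 RPKM without doxycycline, 6.93-fold lower. Beside Spdef and Creb3l1, 12 genes of this list reached 1 RPKM. They include the Notch ligand genes Dll1 and Dll4 and the Notch target gene Hes1, so not all are factors of the secretory fate. With induction 7 of the 12, Dll1 and Dll4 among them, passed 2-fold lower and 1 higher, beside 5.80% and 5.85% of all genes (median log2 ratio -1.16). Creb3l4, Neurog3 and Dll4 lay under 1 RPKM with doxycycline and reached the floor only through the uninduced library. The count of lower genes is therefore partly fixed by the floor. With loss 11 of 12 were higher, beside 65.5% of all genes, and none by 2-fold (median 0.13). Creb3l4, a relative of Creb3l1, was 6.09-fold lower with induction and 1.45-fold higher with loss. The factor more than 2-fold higher with induction was Klf4, which takes part in goblet cell maturation in the colon. Klf4 was at 43.8 RPKM with and 7.90 RPKM without doxycycline, 5.54-fold higher, and had 7.39 RPKM in Yap-/-, against 9.57 RPKM in Yap+/- organoids. Foxa3, a goblet cell forkhead factor, was 2.83-fold lower with induction, while Xbp1, the unfolded-protein response factor, was at 40.2 RPKM with and 59.2 RPKM without doxycycline. Atoh1 is named by its profile below, while Foxa3, Xbp1, Dll1, Dll4 and Hes1 were picked with their values known.

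Genes of the machinery that folds and glycosylates mucin had list medians nearer to 0 than the 10 goblet cell genes, with single genes far from 0. Of 25 endoplasmic reticulum folding and trafficking genes other than Agr2, 2 passed 2-fold lower with induction and 0 higher, beside 5.80% and 5.85% of all genes. Their median log2 ratio was -0.03. Those 2 were Ern2 and Agr3, the neighbouring relative of Agr2, at 0.0820 RPKM with and 1.63 RPKM without doxycycline. Agr3 reached the floor only through the uninduced library. Hspa5, the main chaperone of the endoplasmic reticulum, was at 484 RPKM with and 244 RPKM without doxycycline. With loss of Yap, 13 of the 25 were higher, under the 65.5% of all genes, and none by 2-fold (median 0.01). The list for mucin O-glycosylation had 21 rows at the floor with induction, C1galt1c1 standing in 2 of them. Of these, 3 passed 2-fold lower (Gcnt4, Galnt12 and Galnt7) and 1 higher, beside 5.80% and 5.85% of all genes. Their median log2 ratio was -0.30. Gcnt4, a core 2 branching enzyme, was 3.19-fold lower, at 6.32 RPKM with and 20.1 RPKM without doxycycline. Its relative Gcnt1 was 60.9-fold higher, at 23.0 RPKM with and 0.377 RPKM without doxycycline. Gcnt1, the gene counted as higher, reached the floor only through the induced library. Chst4, a sulfotransferase gene, was furthest apart with loss, with 6.89 RPKM in Yap-/-, against 14.2 RPKM in Yap+/- organoids, short of 2-fold on the log2 scale used for calls (-0.95). With loss 10 of 20 rows of this list, both C1galt1c1 rows included, were higher, under the 65.5% of all genes, and none by 2-fold. Galnt12, an initiating transferase gene, was 1.35-fold higher with loss. Agr3, Hspa5 and Galnt7 were picked with their values known.

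Relatives of the secreted genes were few at these levels. Of the membrane-bound mucins, Muc13 and Muc3 differed less than Muc2. Muc13 was at 181 RPKM with and 237 RPKM without doxycycline, and Muc3 at 26.5 RPKM with and 43.2 RPKM without. Muc4 was at 0.683 RPKM with and 2.83 RPKM without doxycycline, and was the mucin other than Muc2 past 2-fold. It reached the floor only through the uninduced library. With loss of Yap, Muc2 was 1.59-fold and Muc13 1.03-fold higher, while Muc3 was 1.16-fold and Muc4 1.55-fold lower. In that pair Muc4 reached 1 RPKM only in Yap+/- organoids. The airway and stomach gel-forming mucin genes Muc5ac, Muc5b and Muc6 lay under 1 RPKM in every library. Spink3, the pancreatic-type inhibitor gene now called Spink1, had 137 RPKM in Yap-/-, against 76.4 RPKM in Yap+/- organoids (1.79-fold higher), and 11.4 RPKM in YapTg organoids with and 60.8 RPKM without doxycycline (5.32-fold lower). Itln1, the intelectin gene that Paneth and goblet cells both express, was 2.19-fold higher with loss and 1.68-fold lower with induction. Muc13, Muc3, Muc5ac, Muc5b and Muc6 were picked with their values known.

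**Figure D4:**
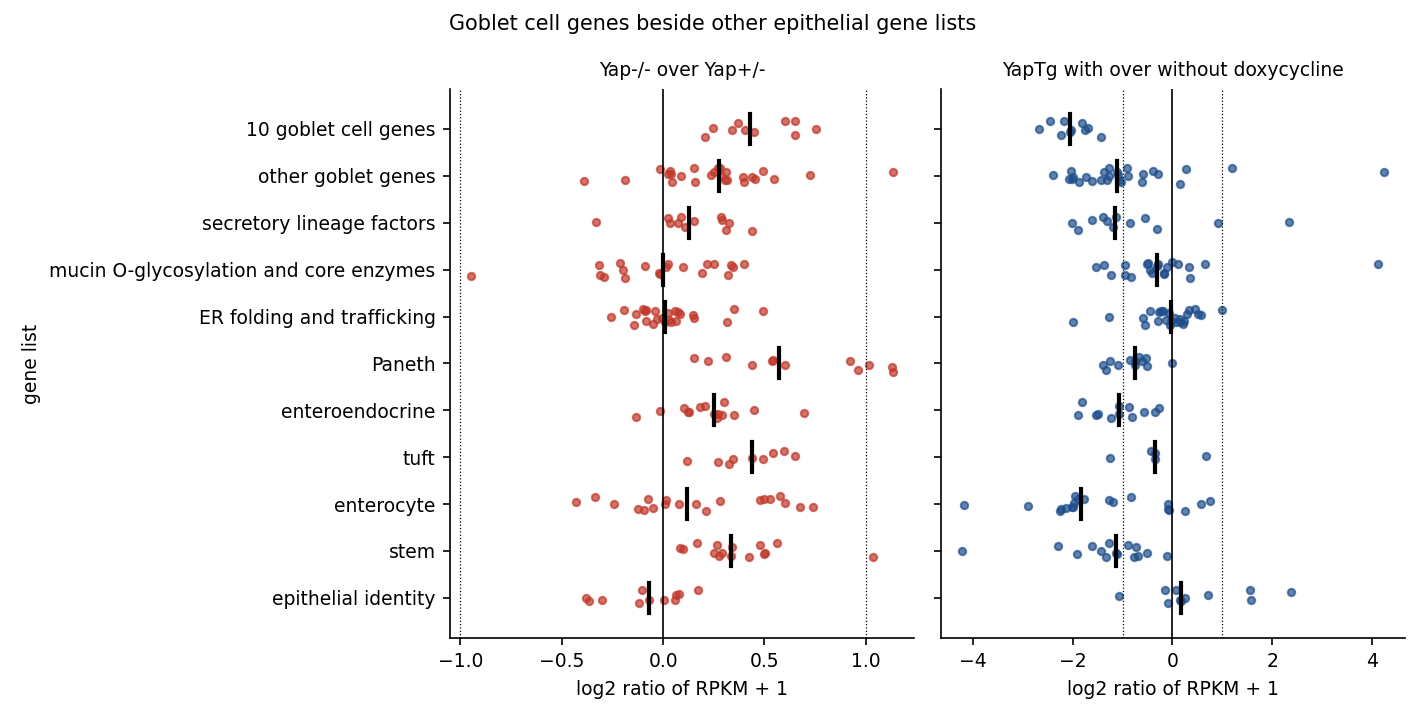
Log2 ratio (on RPKM + 1) of each gene at 1 RPKM or more, by list, in Yap-/- over Yap+/- and in YapTg with over without doxycycline; black bars are list medians, dotted lines 2-fold, and the 10 goblet cell genes are left out of the other lists. Some genes are in more than 1 of the other lists. With induction the goblet cell median is -2.05, next to -1.83 for enterocyte and -0.75 for Paneth cell genes, and with loss it is 0.43, beside 0.57 for Paneth and 0.12 for enterocyte genes.

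Markers of the other epithelial lineages differed in the same pairs of libraries. With induction 13 of 20 enterocyte genes were at least 2-fold lower (median log2 ratio -1.83), 7 of 12 enteroendocrine genes (-1.07), 4 of 12 Paneth cell genes (-0.75), 9 of 15 stem cell genes (-1.13) and 1 of 5 tuft cell genes (-0.35), beside 5.80% of all genes. In the same order of lists, 1, 8, 3, 3 and 8 genes lay under 1 RPKM with doxycycline, and 0, 6, 0, 1 and 7 without it. Some genes thus reached the floor only through the uninduced library, where they were higher, so these counts are partly fixed by the floor. The lists share genes. Cd24a, the tuft gene called, is also in the Paneth list, where it was called with Ang4, Dll4 and Wnt3. Ang4 is also in the list of other goblet cell genes, and Dll4 and the enteroendocrine gene Neurog3 in that of secretory lineage genes. The summed enterocyte level was 2325 RPKM with and 5809 RPKM without doxycycline, and the summed Paneth level 8194 and 12537 RPKM in the same order. Of 11 epithelial identity genes, the keratin genes Krt18, Krt19 and Krt8 were at least 2-fold higher and Cdx1 at least 2-fold lower, while Epcam was at 335 RPKM with and 372 RPKM without doxycycline. With loss of Yap, all 12 Paneth, all 9 tuft and all 15 stem cell genes that reached 1 RPKM were higher, as were 13 of 15 enteroendocrine genes, beside 65.5% of all genes. For enterocyte genes the count, 13 of 20, was close to that share. Under 1 RPKM lay 1 Paneth and 4 tuft genes in Yap+/- organoids, and 0 and 3 in Yap-/- organoids. Some of these genes thus reached the floor only where they were higher. The medians of the Paneth, tuft, stem, enteroendocrine and enterocyte genes were 0.57, 0.44, 0.34, 0.25 and 0.12 in that order. The summed Paneth level was 10095 RPKM in Yap-/-, against 5100.2 RPKM in Yap+/- organoids, and the summed enterocyte level 11917 and 8791 RPKM in the same order. The part of these other lineages in the goblet cell values was not tested. A list of 11 genes taken as YAP targets was chosen with earlier results of these data known. In the Yap-/- and Yap+/- pair 4 of them (Msln, F3, Ly6a and Clu) reached 1 RPKM, 2 of them through the Yap+/- library alone. These 4 were at least 2-fold lower with loss, beside 0.570% of all genes. Ctgf, Cyr61, Ankrd1, Amotl2, Axl, Lats2 and Tead4 lay under 1 RPKM in both libraries, so the count leaves them out. With induction all 11 were at least 2-fold higher, beside 5.85% of all genes, but 6 of them lay under 1 RPKM without doxycycline and reached the floor only through the induced library, so that count is partly fixed by the floor. Cdx1, Krt8 and Epcam here, and Col3a1 and Hba-a1 above, were picked with their values known. The medians of 15 housekeeping genes were 0.10 with loss and -0.05 with induction.

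Genes with the profile most like that of the 10 were sought among 7159 others with a mean of 5 RPKM or more, by Euclidean distance between centred log2 profiles over the 4 libraries. The nearest were Scin (0.140), the predicted gene Gm10684 (0.146), Slc12a8 (0.162), Atoh1 (0.165), Ano7 (0.168) and Slc10a5 (0.183). Scin, which encodes an actin-severing protein, had 70.2 RPKM in Yap-/-, against 58.7 RPKM in Yap+/- organoids, and 14.6 RPKM in YapTg organoids with and 64.4 RPKM without doxycycline. Ano7, an anoctamin gene, had 7.34 RPKM in Yap-/-, against 5.21 RPKM in Yap+/- organoids, and 0.859 RPKM with and 8.02 RPKM without doxycycline. Within the 10, Spdef (0.0966) and Creb3l1 (0.162) lay nearest to the shared median profile, which they helped to set, and Retnlb (1.37) and Klk1 (1.13) furthest from it. The distances of Retnlb and Klk1 go with their opposite gaps between Yap+/- and uninduced YapTg organoids.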

How the data were processed

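RNA of 4 organoid cultures was measured by RNA-seq, 1 library per group, grouped by genotype and title. Per the submitters' processing notes, CASAVA 1.8, FastQC and TopHat 1.4.1 were used with the mm9 build. The authors deposited 1 table with 4 columns of values, RPKM as judged by the recovery below because its header gives no unit. Any counter, annotation, strand setting or filter was not given in the sources used here. Library totals were solved from GENCODE M21 (GRCm38) exon lengths, with 1306 of 5253 genes giving the same totals. A whole gene length that makes reads whole (within 0.05) existed for 17377 of 17378 genes above 0, and for each of the 10 goblet cell genes. For 4 of these 10 it was the GENCODE length. Several lengths can fit a gene and the nearest to GENCODE was taken, so read numbers and interval widths rest on that choice.

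Log2 ratios used RPKM plus a pseudocount of 1, which understates low genes, and folds are ratios of RPKM. A gene counted as higher or lower at 2-fold on the log2 scale with the higher library at 1 RPKM. Exact conditional (Clopper-Pearson) 95% intervals of folds cover counting error only, as PCR copies are not independent molecules. The read recovery and the calls were tested on simulated data. The goblet cell genes and 16 other gene lists were chosen with earlier results of these data known. The naming rule took these 10, Yap1, from other lists the 2 genes furthest from 0, and the 6 genes of nearest profile. Lineage lists are given mainly by counts, and genes named outside the rule are marked. Python 3.11.15, numpy 2.4.6, scipy 1.17.1 and pandas 2.3.3 were used. Alternatives were other pseudocounts, floors, thresholds and scalings, and calls by counting interval.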

Additional observations from a re-analysis of the deposited data

How the results depend on the processing

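Every one of the 10 goblet cell genes kept its direction in all 3 comparisons under pseudocounts of 0.1 and 5, a floor of 5 RPKM, and median-ratio and upper-quartile scaling (50 of 50 values in each comparison). The median log2 ratio of the 10 ran from 0.38 to 0.43 with loss of Yap, from -2.15 to -1.76 with induction, and from -0.38 to -0.21 for Yap+/- over uninduced YapTg organoids. With induction, Spdef and Creb3l1 moved most: their log2 ratios were -2.67 and -2.83 at a pseudocount of 0.1, -2.04 and -2.23 at 1, and -1.05 and -1.23 at 5. With induction 10 of 10 were called under every alternative except the 4-fold threshold, which left 6. With loss 0 were called, except 4 at 1.5-fold and 10 by counting interval. Between Yap+/- and uninduced YapTg organoids 1 was called, and the count was 2 after median-ratio scaling, 0 at 4-fold, 4 at 1.5-fold and 9 by counting interval. The counts of all genes called had main values of 97, 1294 and 200 for loss, induction and Yap+/- over uninduced YapTg organoids. In that order they were 178, 1753 and 411 at a pseudocount of 0.1, and 68, 1036 and 158 with a floor of 5 RPKM. At a pseudocount of 5 they were 39, 673 and 99 in the same order of comparisons. They were 9, 312 and 35 at 4-fold, 312, 2714 and 881 at 1.5-fold, and 6204, 9234 and 8361 by counting interval. That interval knows only read counts, so at this depth it calls most genes, and no setting replaces the missing replicates. No paired analysis was possible because each group has 1 library.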
